A study of Mus musculus with 3 samples.

Results

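HSP70 chaperones do not work alone. J proteins, also called HSP40 proteins, deliver clients to HSP70 and stimulate its ATPase, nucleotide exchange factors then release the ADP so that the client can leave, and further regulators stabilise or redirect the complex. Several of these co-chaperones are known targets of heat shock factor 1, the transcription factor that is activated when unfolded proteins accumulate, while others are expressed constantly.

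Here 10 co-chaperone genes were described among the 27088 genes of the table, in B cells sorted from the spleen of mice with ovalbumin-induced allergic rhinitis. They comprised 6 J proteins (Dnaja1, Dnaja2, Dnaja4, Dnajb1, Dnajb4 and Dnajb6), 3 nucleotide exchange factors of HSP70 (Hsph1, Bag3 and Hspbp1) and the HSP70-interacting protein St13. The genes were chosen by name and function, with earlier results of these same libraries known, so their differences between the libraries are given as a description.

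All mice of the series were female BALB/c mice, 13 weeks old at collection. Both groups compared here were sensitised with 10 μg ovalbumin (OVA) in 2 mg alum by intraperitoneal injection on days 0, 7 and 14, and challenged intranasally with 100 μg OVA from day 21 to day 27 and from day 29 to day 35. On days 0, 14 and 28, the PBS group received PBS under the skin, whereas the SJMHE1 group received 10 μg of SJMHE1, a small peptide from HSP60 of the blood fluke Schistosoma japonicum, emulsified in incomplete Freund's adjuvant. Only the SJMHE1 group received the adjuvant, so peptide and adjuvant cannot be told apart. Samples of 3 mice were mixed for each group and sequenced as 1 library of rRNA-depleted total RNA. A library from healthy mice (Control) was not analysed here.

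There was thus 1 library per group and no replicate. No difference below has a replicate check or a p-value, and every 95% interval covers counting error only. The PBS library (PBS below) held 48267168 counts and the SJMHE1 library (SJMHE1) 51280237. Levels are given as FPKM, fragments scaled to gene length and library size, and differences as the log2 ratio of the FPKM in the SJMHE1 library to that in the PBS library. In total, 12433 genes that reached 1 FPKM in either library and were above 0 in the other were compared, and a gene is called higher or lower where the log2 ratio lay above 1 or below -1, a 2-fold difference.

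The 12 B cell markers summed to 12566 FPKM in PBS and 12603 FPKM in SJMHE1, and Ighm and Cd74 held most of both sums. None of the 12 passed the threshold. Their log2 ratios ran from -0.11 (Cd74) to 0.68 (Cr2, 136 and 218 FPKM). Markers of other cells, summed over all genes of each list, were far lower but not equal between the libraries. Of 10 T cell markers, 9 were lower in the SJMHE1 library, and the list's median log2 ratio was -1.96. All 10 summed to 57.5 FPKM in PBS and 33.2 FPKM in SJMHE1. Much of both sums was Lck, the marker that was not lower (27.9 and 25.2 FPKM, log2 ratio -0.15). Also lower were 4 of the 5 NK cell markers compared (15.4 and 6.75 FPKM) and 2 of the 3 dendritic cell markers compared (7.83 and 3.78 FPKM). All defining T cell markers were above 0 in both libraries. The 7 plasma cell markers summed to 653.5 and 549 FPKM with 1 lower, the 10 macrophage markers to 30.3 and 26.3 FPKM with 2 of the 8 compared higher, the 8 neutrophil markers to 422 and 502 FPKM with none past the threshold, and the 9 erythroid markers to 154 and 203 FPKM with 1 higher. Their part in the ratios of the co-chaperones was not tested, and in mixed cells a smaller share of a cell type and less RNA per cell cannot be told apart.

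The promoters of 9 of the 10 genes were read from RefSeq sequences of GRCm38.p6 (250 bases before to 50 bases after an annotated start site), and 5 are printed because they set the co-chaperones with the highest ratios beside one whose ratio was close to 0. Heat shock factors bind to alternating units of GAA and its reverse TTC. Capitals mark exact matches to 2 such units 2 bases apart, GAANNTTC or TTCNNGAA, which read the same on both strands. Adjacent matches that share a unit run together and make up a match to 3 units, GAANNTTCNNGAA or TTCNNGAANNTTC, each being the other's reverse complement.
Hsph1, chr5:149636287-149636586, minus strand: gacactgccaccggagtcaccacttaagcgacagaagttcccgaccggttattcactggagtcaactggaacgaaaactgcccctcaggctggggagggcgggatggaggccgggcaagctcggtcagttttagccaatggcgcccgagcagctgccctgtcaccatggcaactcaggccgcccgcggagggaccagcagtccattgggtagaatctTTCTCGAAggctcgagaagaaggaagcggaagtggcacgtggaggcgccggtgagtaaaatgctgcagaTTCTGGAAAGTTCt
Dnajb6, chr5:29735648-29735947, plus strand: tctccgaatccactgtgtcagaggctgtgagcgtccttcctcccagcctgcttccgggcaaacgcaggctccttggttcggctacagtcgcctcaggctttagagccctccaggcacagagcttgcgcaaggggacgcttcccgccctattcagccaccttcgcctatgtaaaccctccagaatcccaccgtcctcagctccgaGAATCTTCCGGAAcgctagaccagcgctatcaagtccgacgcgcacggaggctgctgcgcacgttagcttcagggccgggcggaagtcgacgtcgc
Dnaja1, chr4:40722218-40722517, plus strand: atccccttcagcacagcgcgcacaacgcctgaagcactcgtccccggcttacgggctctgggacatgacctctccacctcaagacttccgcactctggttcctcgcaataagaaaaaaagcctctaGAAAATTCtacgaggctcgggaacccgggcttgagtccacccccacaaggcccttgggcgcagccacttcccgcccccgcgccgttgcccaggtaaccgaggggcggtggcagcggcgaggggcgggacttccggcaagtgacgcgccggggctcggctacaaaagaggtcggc
Bag3, chr7:128523333-128523632, plus strand: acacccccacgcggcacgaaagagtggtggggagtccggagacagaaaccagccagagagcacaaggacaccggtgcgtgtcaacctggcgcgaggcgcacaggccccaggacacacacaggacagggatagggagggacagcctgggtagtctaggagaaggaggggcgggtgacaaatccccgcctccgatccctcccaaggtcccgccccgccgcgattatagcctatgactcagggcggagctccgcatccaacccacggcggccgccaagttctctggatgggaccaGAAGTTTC
Dnajb1, chr8:83607925-83608224, plus strand: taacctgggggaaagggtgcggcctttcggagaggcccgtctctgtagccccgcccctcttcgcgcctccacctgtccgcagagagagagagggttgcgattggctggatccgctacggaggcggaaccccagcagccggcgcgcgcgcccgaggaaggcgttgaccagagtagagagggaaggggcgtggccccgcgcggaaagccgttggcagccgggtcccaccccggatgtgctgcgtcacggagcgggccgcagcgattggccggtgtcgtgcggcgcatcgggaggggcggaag

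Of the 10 co-chaperones, all of which were compared, 4 were higher in the SJMHE1 library (Dnajb1, Hsph1, Dnaja1 and Bag3), none was lower, and 6 did not pass the threshold. Over all genes compared, 302 were higher (2.43%) and 444 were lower (3.57%). Since the members were picked with these values known, nothing is read from the difference between the shares. The median log2 ratio of the members was 0.67, beside -0.01 over all genes compared, and 9 of the 10 members had a ratio above 0, beside 47.7% of all genes. The members together took 1427 CPM (counts scaled to 1 common library total) in PBS and 4478 in SJMHE1, a 3.14-fold difference. The 4 higher genes held 69.3% of the members' counts in PBS and 88.4% in SJMHE1.

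**Figure D1:**
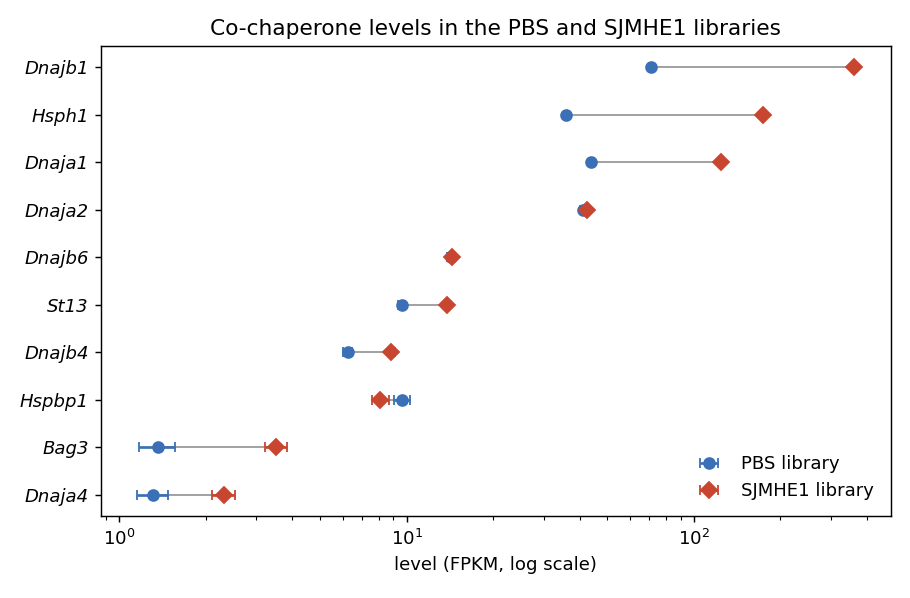
Level of each co-chaperone in FPKM (log axis) in the PBS library (circles) and the SJMHE1 library (diamonds), 1 library each. Bars are 95% counting intervals, and the genes are sorted by their level in the SJMHE1 library. Dnajb1, Hsph1 and Dnaja1 lie between 36.0 and 70.9 FPKM in PBS and between 124 and 359.7 FPKM in SJMHE1, whereas the markers of Dnaja2 and Dnajb6 nearly coincide.

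The DNAJA class holds the J proteins most like bacterial DnaJ. Dnaja1 (ENSMUSG00000028410, chr4:40722150-40734964 in mm10, plus strand), a cytosolic J protein that also takes part in protein import into mitochondria, read 43.7 FPKM (20693 counts) in PBS and 124 FPKM (62044 counts) in SJMHE1. Its log2 ratio was 1.50 (1.48 to 1.53), a 2.83-fold higher level. Dnaja2 (ENSMUSG00000031701, chr8:85537633-85555344, minus strand), its close cytosolic relative, read 41.3 FPKM (6740 counts) and 42.4 FPKM (7327 counts), and its log2 ratio of 0.04 had an interval that included 0 (-0.01 to 0.09). By FPKM, Dnaja1 stood at 1.06 times Dnaja2 in PBS and at 2.92 times in SJMHE1. These level comparisons rest on the lengths used for the FPKM. With the summed counts as library size, the PBS values imply 9.81 kb for Dnaja1 and 3.38 kb for Dnaja2. Their exons in GENCODE M21 together cover 8.629 kb and 2.975 kb, and their longest coding transcripts have 5622 and 2919 bases. The implied lengths exceed the exon lengths in nearly the same proportion for both genes. Between the 2 genes they thus follow the exons together and not the longest coding transcripts. In kb they are approximate, since they rest on that library size. Without a length, Dnaja1 was already the higher of the pair in PBS, with 429 CPM against 140 CPM. The difference between their log2 ratios was 1.46 (1.41 to 1.52).

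Dnaja4 (ENSMUSG00000032285, chr9:54698873-54714761, plus strand), a DNAJA class J protein, had the lowest FPKM of the members in both libraries. In PBS its counting interval overlapped that of Bag3, which had fewer counts (191). Dnaja4 read 1.31 FPKM (259 counts) in PBS and 2.31 FPKM (484 counts) in SJMHE1. The log2 ratio of 0.82 did not pass the threshold, and its interval (0.60 to 1.04) included it. Of its exonic 50-base windows, 42.7% also occur in exons of Wdr61, a gene on the opposite strand that overlaps its end, and whether the counting used strand is not given in the sources used here. Wdr61 read 5.22 FPKM (1341 counts) and 4.08 FPKM (1109 counts). The counts of the 2 genes summed to 1600 and 1593, a log2 ratio of CPM of -0.09 (-0.19 to 0.01). Most of these counts were those of Wdr61, so the sum cannot show how Dnaja4 differed. Because of the shared windows, the value of Dnaja4 alone is uncertain. The remaining gene of the class, Dnaja3, which encodes the mitochondrial J protein, read 9.10 FPKM in both libraries.

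In the DNAJB class, Dnajb1 (ENSMUSG00000005483, chr8:83608193-83612653, plus strand) had the highest FPKM of the members in both libraries and the highest ratio. This J protein is the main partner of stress-inducible HSP70 in the cytosol. It read 70.9 FPKM (12469 counts) in PBS and 359.7 FPKM (66966 counts) in SJMHE1, a 5.07-fold higher level. With a log2 ratio of 2.34 (2.32 to 2.37), it held rank 44 among the 12433 genes compared.

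Dnajb4 (ENSMUSG00000028035, chr3:152178511-152210279, minus strand), a J protein closely related to Dnajb1, read 6.23 FPKM (3002 counts) and 8.85 FPKM (4511 counts). Its log2 ratio was 0.51 (0.44 to 0.57). Dnajb6 (ENSMUSG00000029131, chr5:29735688-29818134, plus strand), a J protein known for suppressing the aggregation of polyglutamine proteins, read 14.2 FPKM (4739 counts) and 14.4 FPKM (5074 counts), a log2 ratio of 0.02 (-0.04 to 0.07). Neither gene passed the threshold. The log2 ratio of Dnajb1 exceeded that of Dnajb4 by 1.84 (1.76 to 1.91) and that of Dnajb6 by 2.33 (2.26 to 2.39), and its level went from 4.98 times that of Dnajb6 in the PBS library to 25.0 times in the SJMHE1 library.

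Among the nucleotide exchange factors, Hsph1 (ENSMUSG00000029657, chr5:149614287-149636376, minus strand) had the highest ratio. It encodes HSP110 (also called HSP105), a large relative of HSP70 that acts on HSP70 as an exchange factor. The gene read 36.0 FPKM (14366 counts) in PBS and 174 FPKM (73509 counts) in SJMHE1, which is 4.84-fold higher, with a log2 ratio of 2.27 (2.25 to 2.30). By level it stood below Dnaja1 and Dnaja2 in PBS and above both in SJMHE1. Its ratio lay within 0.07 (0.03 to 0.11) of that of Dnajb1, the closest pair among the 4 higher genes.

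Bag3 (ENSMUSG00000030847, chr7:128523616-128546981, plus strand), which links HSP70 to small heat shock proteins and to selective autophagy, was higher as well but from a low level. It read 1.36 FPKM (191 counts) and 3.52 FPKM (525 counts), a log2 ratio of 1.37 (1.13 to 1.62) or 2.59-fold. With 191 counts its interval was the widest of the 10, and with a pseudocount of 1 added to each FPKM its log2 ratio was 0.94, below the threshold. Hspbp1 (ENSMUSG00000063802, chr7:4660521-4685068, minus strand), an exchange factor of a separate structural family, was the only member with a ratio below 0. It read 9.65 FPKM (1004 counts) and 8.11 FPKM (893 counts), a log2 ratio of -0.25 (-0.38 to -0.12). The 3 exchange factors thus did not share 1 ratio: Hsph1 exceeded Bag3 by 0.90 (0.65 to 1.14) and Hspbp1 by 2.52 (2.39 to 2.66) on the log2 scale.

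St13 (ENSMUSG00000022403, chr15:81363669-81400043, minus strand), known as HIP, slows the release of ADP and so stabilises the HSP70-client complex. It read 9.61 FPKM (5436 counts) in PBS and 13.8 FPKM (8286 counts) in SJMHE1. The log2 ratio of 0.53 (0.48 to 0.58) did not pass the threshold, although it lay above the middle 90% of the 11366 genes that reached 1 FPKM in each library (-0.57 to 0.49). In all, 7 of the 10 members had a ratio above 0.5, beside 7.28% of all genes compared.

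**Figure D2:**
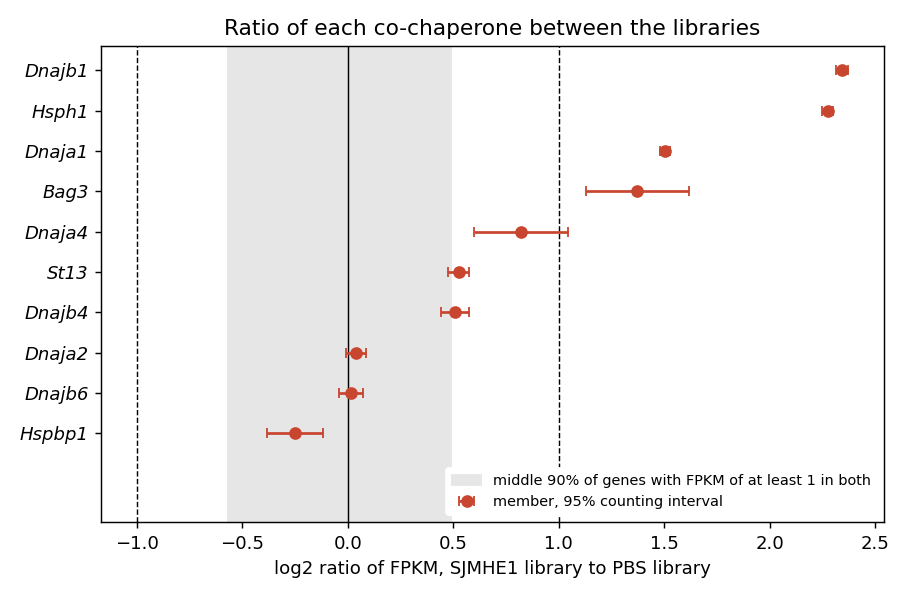
Log2 ratio of FPKM (SJMHE1 library to PBS library) for each co-chaperone, with bars for 95% counting intervals, dashed lines at -1 and 1 and a grey band for the middle 90% of genes that reached 1 FPKM in each library (-0.57 to 0.49). Dnajb1 (2.34), Hsph1 (2.27), Dnaja1 (1.50) and Bag3 (1.37) have intervals wholly to the right of the threshold, and only Dnaja2, Dnajb6 and Hspbp1 lie inside the band with their points.

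By level, the order in the PBS library was Dnajb1, Dnaja1, Dnaja2, Hsph1, Dnajb6, Hspbp1, St13, Dnajb4, Bag3 and Dnaja4. The counting intervals of the neighbours Hspbp1 and St13, and of Bag3 and Dnaja4, overlapped. In the SJMHE1 library the order was Dnajb1, Hsph1, Dnaja1, Dnaja2, Dnajb6, St13, Dnajb4, Hspbp1, Bag3 and Dnaja4, with overlapping intervals for Dnajb6 and St13 and for Dnajb4 and Hspbp1. The FPKM order depends on the gene length used to make the values. With the summed counts as library size, the SJMHE1 values imply a length of 8.23 kb for Hsph1 and 3.63 kb for Dnajb1. The exons of the 2 genes in GENCODE M21 together cover 7.266 kb and 3.204 kb, which is less in nearly the same proportion. In kb the implied lengths are approximate, since they rest on that library size. Their longest coding transcripts have 3802 and 2996 bases. In CPM, the order of the top 3 in PBS was Dnaja1 (429), Hsph1 (298) and Dnajb1 (258), and in SJMHE1 it was Hsph1 (1433), Dnajb1 (1306) and Dnaja1 (1210), so Dnajb1 led by FPKM but not by CPM. A gene's length was the same for both libraries to within rounding, so the ratios do not depend on it.

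Depth matters for reading these ratios, since genes with few counts scatter widely, as the plot of ratio against mean level shows. Among the 8869 genes that had at least the lowest member's count in each library (191 in PBS and 484 in SJMHE1), 38 were higher (0.428%), the 4 members included. Among the 4143 genes that reached 10 FPKM in each library, 13 were higher (0.314%), and 3 of these were members: Dnajb1 at rank 3, Hsph1 at rank 4 and Dnaja1 at rank 7. Hspa1b and Hspa1a, the stress-inducible HSP70 genes, held ranks 1 and 2. The 5 genes outside the members nearest in ratio to Dnajb1 at this level were the immunoglobulin joining segment Ighj1 (1.74), a pair of kappa variable segments (1.21 and 1.16), the mitochondrial co-chaperonin Hspe1 (1.52) and Hspa1a (3.39). None of these 5 lay within 0.5 of its ratio. The small heat shock protein gene Hspb1, left out here because it read 8.19 FPKM in PBS, had a close log2 ratio of 2.44 (2.30 to 2.58).

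**Figure D3:**
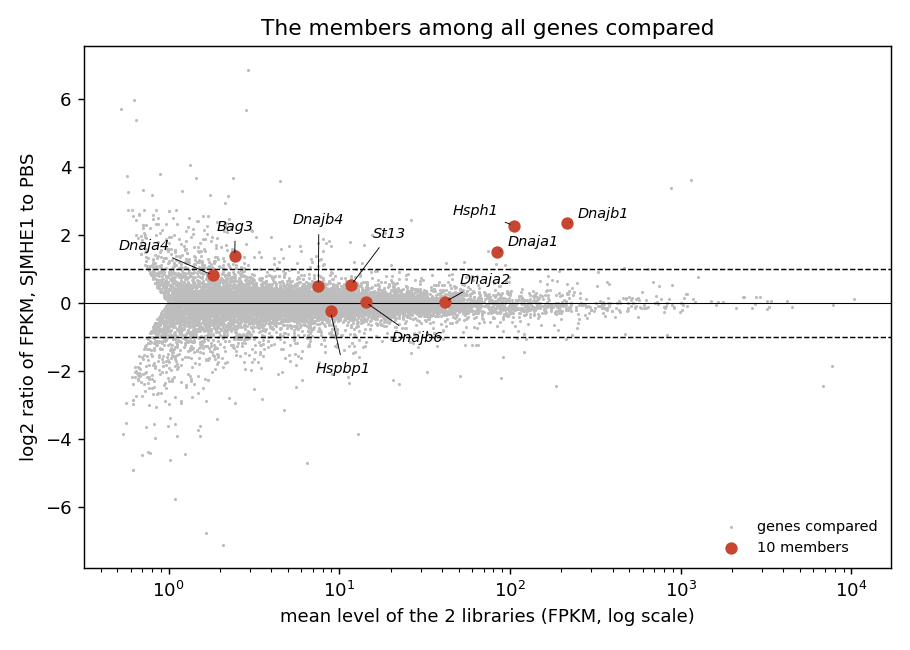
Log2 ratio of FPKM (SJMHE1 to PBS) against the mean FPKM of the 2 libraries (log axis) for the 12433 genes compared (grey) and the 10 members (red), with dashed lines at -1 and 1. At high levels few genes lie beyond the lines, and Dnajb1, Hsph1 and Dnaja1 are among the 13 higher genes that reached 10 FPKM in each library.

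The other J proteins were described next, since the members are 6 of a large family. Of 49 J protein genes listed, 39 were compared. None of the 33 outside the members passed the threshold in either direction, 31 lay between -0.5 and 0.5, and their median log2 ratio was 0.02. Dnajb13, known from sperm and cilia, lay below that range (2.73 FPKM in PBS and 1.78 FPKM in SJMHE1, log2 ratio -0.62).

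Within the classes, 1 of 4 DNAJA genes, 1 of 9 DNAJB genes and 0 of 26 DNAJC genes compared were higher, and none was lower. Dnajb9, a J protein of the endoplasmic reticulum and the most abundant DNAJB gene outside the members, read 71.6 FPKM in the PBS library, just above Dnajb1, and 60.3 FPKM in the SJMHE1 library (log2 ratio -0.25). The median of the 26 DNAJC genes was 0.03, and Dnajc9, with the highest mean FPKM of them, read 39.0 and 37.2 FPKM (-0.07). Dnajc7 was close to it, with 34.7 FPKM in PBS and 41.4 FPKM in SJMHE1 (0.26). The summed FPKM of all J proteins was 608 in PBS and 986 in SJMHE1. The 6 members, chosen with these values known, summed to 178 and 551 FPKM, and the other J proteins to 431 and 435 FPKM. Most of the members' difference was that of Dnajb1 (289 FPKM) and Dnaja1 (80.1 FPKM). Dnajb1 and Dnaja1 alone held 18.8% of the J protein FPKM in PBS and 49.0% in SJMHE1.

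Exchange factors and regulators outside the members were also mostly within the threshold. In the BAG family, Bag3 was the only one of 5 genes compared that was higher, and the median was -0.13. Bag1, the most abundant of them, read 45.2 FPKM in PBS and 37.1 FPKM in SJMHE1 (log2 ratio -0.29). Of 8 exchange factors outside the BAG family, Hsph1 alone was higher (median 0.20). Its paralog Hspa4 had a nearly identical level in the PBS library, 35.5 FPKM, and read 36.1 FPKM in the SJMHE1 library, a log2 ratio of 0.03. Hspa4l, another HSP110 gene, read 1.77 and 3.15 FPKM (0.83).

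Of 8 HSP70 regulators with TPR domains, St13 included, none passed the threshold (median 0.17). Stip1, or HOP, which bridges HSP70 and HSP90, read 46.7 and 81.5 FPKM and had the highest ratio of that list (0.80). The 3 partners of Bag3 in selective autophagy that were compared did not pass either (median -0.34), and Sqstm1, the autophagy receptor p62, read 80.6 and 58.2 FPKM (-0.47).

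HSP70 genes, the partners of the co-chaperones, were in part higher too. Of 9 HSP70 genes compared, 4 were higher and none lower (median 0.28). Hspa1b read 176 FPKM in PBS and 2127 FPKM in SJMHE1 (log2 ratio 3.60), Hspa1a read 153 and 1598 FPKM (3.39), Hspa1l read 0.85 and 2.43 FPKM (1.52), and the constitutive Hspa8 read 307 and 621 FPKM (1.02). Hspa1a and Hspa1b are near-identical copies, so their counts may be split between them. Hspa1a, Hspa1b and Hspa8 together amounted to 1.04 FPKM per FPKM of all J proteins in PBS and to 4.41 in SJMHE1. These 3 genes were each higher, whereas the J protein sum holds genes that did not pass the threshold. Over the whole HSP70 list, with Hspa5 of the endoplasmic reticulum (234 and 283 FPKM) and Hspa9 of mitochondria (46.3 and 45.5 FPKM) included, the sum was 935 FPKM in PBS and 4695 FPKM in SJMHE1.

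Heat shock factors themselves did not pass the threshold. Of the 3 genes of that list compared (median -0.19), Hsbp1, which encodes a small protein that binds HSF1, had the highest level (19.2 and 16.6 FPKM, log2 ratio -0.21). Hsf1 read 7.35 FPKM in PBS and 7.93 FPKM in SJMHE1 (0.11), and Hsf2 read 1.46 and 1.28 FPKM (-0.19).

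**Figure D4:**
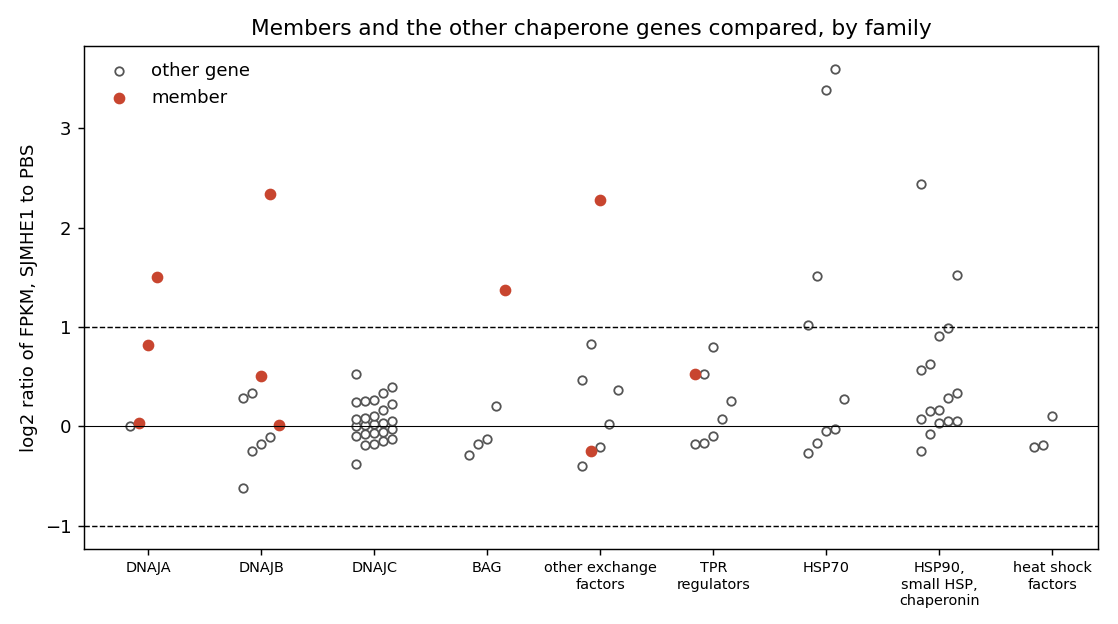
Log2 ratio of FPKM (SJMHE1 to PBS) of each gene compared, by chaperone family, with members as filled and other genes as open circles and dashed lines at -1 and 1. Sideways spread within a family only separates the points. Genes past the upper line are members in the J protein and exchange factor families, and HSP70, small HSP or chaperonin genes elsewhere, while all 26 DNAJC genes lie between the lines.

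In the promoters, at least 1 match to 2 alternating units stood in 6 of the 9 genes with a sequence (Dnaja1, Dnaja4, Dnajb4, Dnajb6, Bag3 and Hsph1), beside 13.9% of the 8265 genes compared that had a promoter sequence. A gene counts here if any of its windows has a match, and the 9 genes had 16 windows in all. Of all 32851 promoter windows, 15.1% held such a match. The match to 3 units was found in Hsph1 and Dnajb6, beside 0.532% of those genes compared and 0.603% of all windows. These 2 genes had very different ratios. In Hsph1 (log2 ratio 2.27) the 13-base run TTCTGGAAAGTTC lay from 37 to 49 bases after the first start site, and a separate match to 2 units lay from 33 to 26 bases before it. In Dnajb6 (log2 ratio 0.02) the run GAATCTTCCGGAA lay from 46 to 34 bases before the first of 2 start sites, which is 127 to 115 bases before the other.

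Dnaja1 had its match from 124 to 117 bases before the first of its 3 start sites and none in the windows of the other two. Bag3, with 1 start site, had its match from 43 to 50 bases after it. No exact match was found in the windows of Dnajb1, Dnaja2 and Hspbp1, so the gene with the highest ratio and 2 with ratios near or below 0 were alike in this. The absence says only that these letters do not occur in the windows. Of other short motifs, the CCAAT box (CCAAT, both strands) was found in Dnajb1, Dnaja1 and Hsph1, and in 43.5% of the genes compared (37.4% of all windows). The GC box (GGGCGG, both strands) was found in all 9 genes and in 68.6% of the genes compared (35.7% of all windows), and TATAA (sense strand) in Dnajb4 and Hspbp1 and in 11.0% of the genes compared (17.5% of all windows). A match is a description of the sequence and does not show that a factor was bound.

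**Figure D5:**
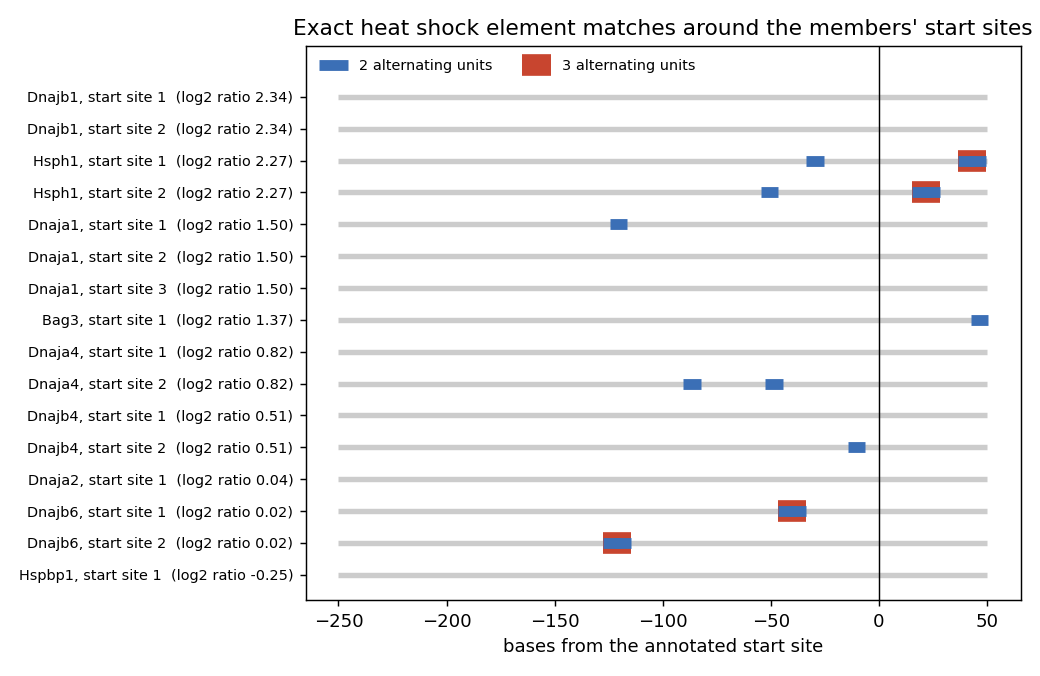
Position of exact heat shock element matches relative to each annotated start site (0, vertical line) in the 16 RefSeq windows of 9 co-chaperones, from 250 bases before to 50 bases after the start, ordered by log2 ratio. Blue bars are matches to 2 alternating units and red frames matches to 3. Hsph1 (2.27) and Dnajb6 (0.02) carry the matches to 3 units, and Dnajb1 (2.34) carries none.

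Sharing of sequence with other genes limits some of the values. In the GENCODE M21 annotation of mm10, 5 members (Dnaja2, Dnajb4, Bag3, Hsph1 and Hspbp1) had no exonic 50-base window in common with an exon of any other gene. Dnaja1 shared 20.6% of its windows, mainly with the processed pseudogenes Gm15542 and Gm7816 and with the overlapping Smu1 on the opposite strand. Gm15542 read 12.8 and 27.5 FPKM (840 and 1908 counts, log2 ratio 1.10), and 76.6% of its own windows occur in Dnaja1 or another member. Gm15542 was itself among the 13 higher genes at 10 FPKM or more, so its counts and those of Dnaja1 may belong to the same transcripts. With the counts of its 3 pseudogenes added, Dnaja1 had a log2 ratio of CPM of 1.48 (1.46 to 1.50), against 1.50 alone. Smu1 read 22.4 and 23.2 FPKM (0.04).

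Dnajb6 shared 21.0% of its windows with pseudogenes, of which 6 are in the table and together held 215 and 202 counts. Adding them left its log2 ratio of CPM at 0.00 (-0.05 to 0.06). The shares of St13 (1.96%) and Dnajb1 (0.41%) were small. The file's coordinates equal those of GENCODE M21 for 6 of the 10 members, and those of Dnaja1, Dnaja4, Dnajb4 and St13 differ at an end of the gene.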

How the data were processed

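Total RNA depleted of rRNA was sequenced from sorted splenic B cells, 1 library per group from mixed samples of 3 mice. The authors deposited a table with counts and FPKM per gene, and both were used as deposited; the counts are whole numbers per gene, and for the members the FPKM equal these counts scaled by 1 length per gene, to within rounding. Per the labels, the submitters' processing notes name bcl2fastq 2.0, HISAT2, StringTie, DESeq2, limma and the build mm10; the counting tool, its version and its strand setting are not given in the sources used here. Here 4 value columns (PBS and SJMHE1) were used. A further 2 value columns, whose name matched no sample's labels, were not used.

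With 1 library per group no test was run. Log2 ratios of FPKM were computed without a pseudocount for genes that reached 1 FPKM in either library and were above 0 in the other, with exact (Clopper-Pearson) 95% intervals from the 2 counts, using Python 3.11.15, pandas 2.3.3 and scipy 1.17.1. A count of 0 allows up to 3 counts, 0.0622 CPM in PBS and 0.0585 in SJMHE1. The ratio and its interval were tested on simulated data that held counting error only. The simulation therefore says nothing about variation between mice or libraries. Shared sequence was searched in 50-base windows of GENCODE M21 exons on both strands, and motifs in RefSeq promoter windows of GRCm38.p6.

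The members and gene lists were chosen with earlier results of these data known. Named were all 10 members, every gene of a pathway list past the threshold or else its most abundant gene, the 5 other genes that reached 10 FPKM in each library nearest in ratio to the highest member, and defining markers, which are given here mostly as sums and counts over each list. Genes singled out beyond this rule (Dnajb13, Dnaja3, Dnajc7, Hspa5, Hspa9, Dnajb9, Bag1, Hspa4, Hspa4l, Hsf1, Hsf2, Hspd1, Hsp90aa1, Fos, the markers Lck, Ighm, Cd74 and Cr2, and genes that share sequence with a member) were chosen after their values were seen. Egr1, Jun and Nr4a1 were likewise chosen after their values were seen. Other pseudocounts, filters, scalings and thresholds were tried as alternatives.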

Additional observations from a re-analysis of the deposited data

How the results depend on the processing

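No member changed the sign of its ratio under the pseudocounts, filters and scalings tried, and Bag3 alone changed its call at the threshold of 1, with a pseudocount of 1 (log2 ratio 0.94); the members' median was then 0.50. At a log2 threshold of 2, 2 members were higher (Dnajb1 and Hsph1). Genes higher and lower over the whole table were 302 and 444. They came to 100 and 146 with a pseudocount of 1, 1367 and 2018 with no filter on low values, 101 and 151 among genes that reached 1 FPKM in each library, 89 and 171 for protein-coding genes only, 720 and 990 at a threshold of 0.58, 73 and 118 at a threshold of 2, and 38 and 39 among genes with at least the lowest member's count in both libraries, a filter chosen after seeing the data. Rescaling to equal FPKM sums added 0.08 to each log2 ratio, leaving out the 50 most abundant genes added 0.03 and centring on the median added 0.01. With 1 library per group, leaving out a library was not possible. No paired analysis was possible because PBS and SJMHE1 had 1 library each. The planned comparisons with the Control group were not run, since no column was matched to that sample. Counting error limits Bag3 and Dnaja4, the members with the fewest counts.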

Other observations

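Beyond the co-chaperones, 2 of 16 genes of the HSP90, small HSP and chaperonin list were higher in the SJMHE1 library (median log2 ratio 0.22). Hspb1, a small heat shock protein, read 8.19 FPKM in PBS and 44.4 FPKM in SJMHE1 (2.44), and Hspe1 read 38.3 and 110.2 FPKM (1.52). Hspd1, the mitochondrial chaperonin that works with Hspe1, read 67.9 and 134.8 FPKM (0.99), just under the threshold. Hsp90aa1 read 229 and 429.6 FPKM (0.91).

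Of 22 immediate early genes compared, which respond within minutes to stimulation or to handling of cells, none was higher and 3 were lower (Nr4a3 at -1.11, Atf3 at -1.25 and Fosl2 at -1.77), with a median of -0.10. The list was split, with 10 ratios above 0 and 12 below. Fos read 731 FPKM in PBS and 1050.3 FPKM in SJMHE1 (0.52). Egr1 read 305 and 452 FPKM (0.57), Jun 620 and 880 FPKM (0.51) and Nr4a1 185 and 118 FPKM (-0.65).

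In sets from the annotation columns, added after seeing the data, the genes other than members were mostly within the threshold. Among 68 other chaperone binding genes compared, 2 were higher and 2 lower (median 0.03), beside 8 members with that term. Among 58 other genes of the regulation of the HSF1-mediated heat shock response, 4 were higher, all of them HSP70 genes, and none lower (median 0.05). Among 140 other genes of protein processing in the endoplasmic reticulum, 4 were higher and 1 lower (median 0.02). Of 17 other genes with ATPase activator activity, 1 was higher and none lower (median 0.17).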
